A study of Homo sapiens with 10 samples.

Results

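The comparison described here sets the cells given LOC400043 siRNA 1 against those given LOC400043 siRNA 2. Its members are 4 of the 10 arrays of the series, chosen by their labels, and it covers all 18480 named genes of the deposited LOC400043 table. LOC400043 is a long non-coding RNA (lncRNA) gene whose present name is LINC02381. The series measured gene expression in HEK-293 cells after silencing of single lncRNAs, within a larger study of non-coding RNAs that may bind microRNAs.

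The 3 groups were LOC400043 siRNA 1 (replicates 1 and 2), LOC400043 siRNA 2 (replicates 1 and 2) and a scramble siRNA (replicates 1 and 2). HEK-293 is an established human embryonic kidney cell line that carries adenovirus DNA, and it was grown in low-glucose DMEM with serum. In every group the siRNA was introduced transiently with the lipid reagent RNAiMax at 10 nM, so the scramble cells differ from the others in the siRNA they received and not in having been transfected. Total RNA was extracted with Trizol and hybridised to Affymetrix HuGene-1_0-st arrays, with 1 array per replicate. The labels call the replicates biological but say no more of how the cultures were kept apart. In bulk RNA, fewer cells with a transcript and less of it per cell cannot be told apart.

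An siRNA is loaded into an Argonaute protein and guides cleavage of a transcript it matches fully. Through the seed at its 5′ end it can also repress transcripts that match only there, so siRNAs of different sequence against one target are commonly used side by side. Transcripts that differ between the cells given either siRNA are measured here whatever their origin, and which of them follow from loss of the lncRNA was not tested.

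The array has no probe set under the name LOC400043 or LINC02381, so how far either siRNA silenced its target was not analysed here. In RefSeq (GRCh38.p14) the gene lies at chr12:54126071-54132843, beside the HOXC cluster. Among the 5 measured neighbours nearest to it on either side, 3 genes changed between the siRNAs by limma (adjusted p under 0.05), where 17.1% of all genes did. HOXC5 was higher with siRNA 1 than with siRNA 2 by 0.45 (log2, standard error SE 0.07, limma's adjusted p = 0.00831). CBX5, which encodes a heterochromatin protein, was also higher, by 0.47 (SE 0.08, adjusted p = 0.00925 by limma). HOXC9 was lower, by -0.27 (SE 0.07), close to the threshold with an adjusted p of 0.0473 by limma. HOXC10, MIR196A2, HOXC8, SMUG1, HNRNPA1, NFE2 and COPZ1 were not called. HOXC5 and HOXC9 were no longer called without any 1 of the siRNA arrays (adjusted p of 0.0545 to 0.07 for HOXC5 and 0.0844 to 0.245 for HOXC9). CBX5 was not called without siRNA 1 replicate 1 (0.0828) or siRNA 2 replicate 1 (0.0661).

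Expression differed widely between the cells given either siRNA. A gene counts as called at a limma adjusted p under 0.05 over all genes, and 3165 genes (17.1%) were called. Of these, 1779 (9.63% of all genes) were higher and 1386 (7.50%) were lower with siRNA 1 than with siRNA 2. Below, rose and fell mean higher and lower with siRNA 1 than with siRNA 2, whatever the level with scramble. Counts in gene lists stand beside these shares of 9.63% and 7.50%. When each array was centred on its own median, 1386 genes were higher and 1673 lower, so the share of higher calls was 45.3% instead of 56.2%. The count was lower without any single siRNA array. Such a fit leaves a group with a single array, which by itself makes the difference less precise. It therefore does not show how much each array contributed to the count. Nearly all genes called in these fits were also called with all arrays, in the same direction.

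Most called differences were modest. The median absolute difference among called genes was 0.43 (log2), the smallest was 0.23, and the median SE over all genes was 0.08. At least a 1.5-fold difference was found for 397 higher and 378 lower genes, at least 2-fold for 52 higher and 73 lower, and at least 4-fold for 2 higher and 5 lower. The siRNA 1 and siRNA 2 arrays did not overlap for any of the 3165 called genes, against 59.4% of all genes. Differences taken between arrays of the same replicate number had the same sign in both replicates for 13135 genes (71.1%). Across genes, which do not count as independent samples, these differences correlated with r = 0.78.

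**Figure D1:**
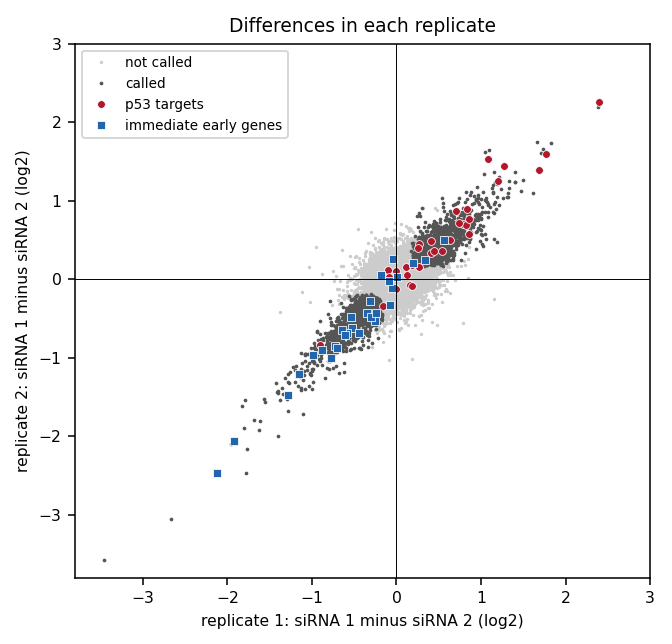
Difference in level between siRNA 1 and siRNA 2 (log2) in replicate 1 (x axis) and in replicate 2 (y axis) for each of the 18480 genes, with called genes in dark grey, p53 targets as red circles and immediate early genes as blue squares. The called genes lie along the diagonal away from 0, with most p53 targets at the upper right and most immediate early genes at the lower left.

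Calls were more frequent among genes with bright probe sets. With a mean level of at least 7 (log2), 24.8% of genes were called, against 6.21% below that level. The share was 2.72% under a level of 5, reached 28.3% between 9 and 10, and was 19.6% at 11 and over. The shares over all genes given beside gene lists below were not matched for level. Some lists with a mean level between 9 and 10 had a share of calls near the 28.3% of genes there. These were autophagy and lysosome (30.0%), glycolysis and hypoxia (28.1%) and actin cytoskeleton (28.0%). At similar mean levels, the shares were 33.3% for ER folding and 59.5% for the amino acid response.

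**Figure D2:**
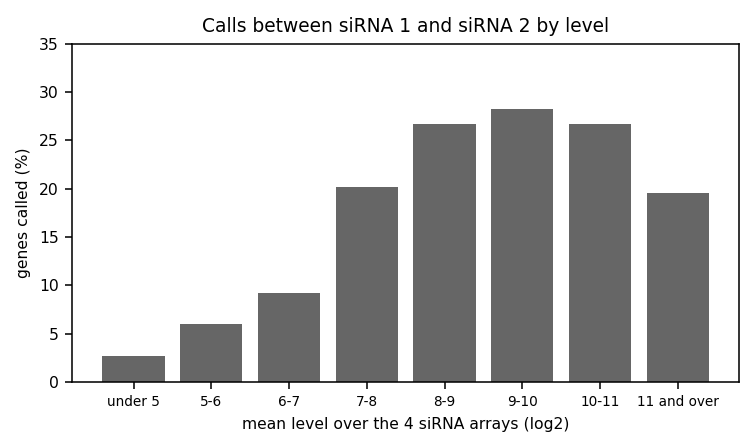
Share of genes called between siRNA 1 and siRNA 2 (y axis, percent) by mean level over the 4 siRNA arrays (x axis, log2). The bars stand at 2.72% under a level of 5, peak at 28.3% between 9 and 10, and end at 19.6% at 11 and over.

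Promoter sequences are shown for 6 genes of the groups described below, because they hold letters known as binding motifs of factors that act on such genes. They are the 250 bases before the RefSeq transcription start on GRCh38.p14, written 5′ to 3′ on the gene's strand, with the motif in capitals. JUN and EGR1 are immediate early genes, CHAC1 and PPP1R15A belong to the amino acid response, and CNN2 and FLNA encode actin-binding proteins. Positions are JUN chr1:58784048-58784297 (minus strand), EGR1 chr5:138465229-138465478 (plus), CHAC1 chr15:40953221-40953470 (plus), PPP1R15A chr19:48872171-48872420 (plus), CNN2 chr19:1026358-1026607 (plus) and FLNA chrX:154374635-154374884 (minus).
JUN: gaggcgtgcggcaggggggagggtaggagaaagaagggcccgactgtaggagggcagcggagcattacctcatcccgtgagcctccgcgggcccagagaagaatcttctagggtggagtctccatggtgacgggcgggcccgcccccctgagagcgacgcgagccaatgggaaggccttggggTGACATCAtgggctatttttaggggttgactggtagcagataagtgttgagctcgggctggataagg
EGR1: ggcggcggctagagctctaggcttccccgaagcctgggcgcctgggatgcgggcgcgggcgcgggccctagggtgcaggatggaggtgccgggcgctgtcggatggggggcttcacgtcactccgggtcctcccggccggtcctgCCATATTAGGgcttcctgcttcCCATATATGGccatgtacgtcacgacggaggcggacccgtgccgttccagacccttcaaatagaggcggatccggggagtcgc
CHAC1: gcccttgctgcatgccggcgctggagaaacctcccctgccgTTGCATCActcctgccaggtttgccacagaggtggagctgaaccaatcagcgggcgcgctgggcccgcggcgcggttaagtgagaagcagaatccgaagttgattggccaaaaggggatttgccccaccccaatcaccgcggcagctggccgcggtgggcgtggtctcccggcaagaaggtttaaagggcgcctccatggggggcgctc
PPP1R15A: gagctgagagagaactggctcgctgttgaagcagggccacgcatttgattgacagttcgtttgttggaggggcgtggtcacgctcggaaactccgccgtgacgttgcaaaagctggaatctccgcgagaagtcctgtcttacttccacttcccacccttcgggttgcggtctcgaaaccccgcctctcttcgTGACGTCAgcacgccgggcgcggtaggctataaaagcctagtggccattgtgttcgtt
CNN2: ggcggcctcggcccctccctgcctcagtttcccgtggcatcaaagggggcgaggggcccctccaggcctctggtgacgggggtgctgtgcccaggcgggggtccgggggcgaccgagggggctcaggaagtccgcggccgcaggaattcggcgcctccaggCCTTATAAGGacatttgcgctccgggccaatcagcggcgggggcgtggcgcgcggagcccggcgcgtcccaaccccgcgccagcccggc
FLNA: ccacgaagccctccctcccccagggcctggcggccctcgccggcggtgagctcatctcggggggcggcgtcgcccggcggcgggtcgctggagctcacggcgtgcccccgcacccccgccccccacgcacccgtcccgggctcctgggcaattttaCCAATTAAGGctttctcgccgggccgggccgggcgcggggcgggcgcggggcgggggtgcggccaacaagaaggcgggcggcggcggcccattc
Both strands were searched, and a match describes the letters only. The capitals in JUN are TGACATCA, a variant of the site of AP-1 and ATF factors, found in 2.37% of all 35116 promoter entries. Those in PPP1R15A are TGACGTCA, the cyclic AMP response element, found in 1.65% of entries. The capitals in CHAC1 are the reverse complement of TGATGNAA, the core of the amino acid response element bound by ATF4 with C/EBP, found in 3.14% of entries. EGR1, CNN2 and FLNA hold the CArG box, the site of serum response factor, found in 1.16% of entries. Among listed genes with a promoter entry, 12 of 44 actin cytoskeleton genes had a CArG box and 7 of 31 amino acid response genes had TGATGNAA. TGACGTCA was in 1 of 31 amino acid response genes (3.23%, against 2.85% of measured genes) and TGACATCA in 3 of 21 immediate early genes. Promoter entries of genes called lower with siRNA 1 held TGACGTCA in 3.52% of cases, against 1.73% for genes called higher. The other motifs were also more frequent among the lower genes. These shares were 3.16% against 1.64% for TGATGNAA, 1.52% against 0.842% for the CArG box and 2.19% against 1.5% for TGACATCA. Entries of all measured genes held TGACGTCA in 2.08%, TGATGNAA in 2.32%, the CArG box in 1.21% and TGACATCA in 1.89% of cases. None of these differences was tested.

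The largest single difference was in ANXA1, which encodes annexin A1, a phospholipid-binding protein known for limiting inflammation. Its level was 7.40 and 7.33 with siRNA 1, 10.86 and 10.90 with siRNA 2, and 7.64 and 7.80 with scramble. The siRNA 2 arrays stood alone at a high level, and the groups did not overlap. ANXA1 was thus 11.5-fold lower with siRNA 1 than with siRNA 2 (log2 difference -3.52, SE 0.08, adjusted p = 2.07e-05 by limma).

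EGR1, a zinc finger transcription factor of the early growth response, had levels of 8.76 and 8.54 with siRNA 1, 10.88 and 11.01 with siRNA 2, and 8.39 and 8.87 with scramble. ETV5, an ETS factor induced by the ERK kinase pathway, had 5.56 and 5.41 with siRNA 1, 7.33 and 7.87 with siRNA 2, and 5.23 and 5.46 with scramble. In both genes the siRNA 1 and scramble arrays overlapped while the siRNA 2 arrays were higher. The siRNA 1 minus siRNA 2 difference was -2.30 (SE 0.16) for EGR1 and -2.12 (SE 0.17) for ETV5. Both were thus lower with siRNA 1 than with siRNA 2 by limma (adjusted p = 0.000631 and 0.000966). TFPI, the inhibitor of the tissue factor pathway of coagulation (-2.02), OVGP1, an oviduct glycoprotein (-1.96), and DDIT3, the stress factor CHOP (-1.77), fell too. The keratin-associated protein genes KRTAP21-2 (-2.86) and KRTAP19-5 (-1.72) fell as well. In these 5 genes too, siRNA 2 stood apart from scramble by 1.46 to 2.31 (log2, called by limma), and siRNA 1 did not pass against scramble.

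OSTN, DDX23 and CNN2 had the opposite arrangement, with siRNA 1 below both other groups. OSTN, which encodes the secreted peptide osteocrin, had 5.65 and 5.64 with siRNA 1, 7.33 and 7.43 with siRNA 2, and 7.37 and 7.75 with scramble. DDX23, an RNA helicase of the spliceosome, had 8.74 and 8.79 with siRNA 1, 10.36 and 10.60 with siRNA 2, and 10.33 and 10.30 with scramble. CNN2, an actin-binding calponin whose CArG box is shown above, had 7.97 and 7.85 with siRNA 1, 9.78 and 9.75 with siRNA 2, and 9.51 and 9.42 with scramble. All 3 fell with siRNA 1, with log2 differences of -1.74 for OSTN, -1.71 for DDX23 and -1.85 for CNN2.

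Among the genes that were higher with siRNA 1, ACTA2, the smooth muscle actin, had levels of 9.34 and 9.25 with siRNA 1, 6.95 and 6.99 with siRNA 2, and 9.38 and 9.40 with scramble. ERAL1, a GTPase that assembles the small subunit of the mitochondrial ribosome, had 11.47 and 11.43 with siRNA 1, 9.09 and 9.23 with siRNA 2, and 11.24 and 11.15 with scramble. In both, siRNA 2 was the low group. The differences were 2.33 (SE 0.07, adjusted p = 6.22e-05 by limma) and 2.29 (SE 0.08, adjusted p = 0.000104 by limma), or 5.01-fold and 4.89-fold.

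PRPF8, the central protein of the spliceosome, had 12.80 and 12.79 with siRNA 1, 11.40 and 11.43 with siRNA 2, and 12.82 and 12.81 with scramble. NDUFV1, a subunit of respiratory complex I, had 10.69 and 10.57 with siRNA 1, 9.19 and 9.31 with siRNA 2, and 10.96 and 10.99 with scramble. PRPF8 and NDUFV1 each rose by 1.38. CYFIP2, a subunit of the WAVE complex of actin assembly (1.66), INPP5D, an inositol phosphatase (1.37), and NUDT11, a diphosphoinositol phosphatase (1.36), also rose. NUDT11 was no longer called without siRNA 1 replicate 1 (adjusted p = 0.0531 by limma) or siRNA 1 replicate 2 (adjusted p = 0.0707).

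In 2 of the 12 genes with the largest rise, siRNA 1 was the group that stood apart. SLC4A8, a sodium-driven bicarbonate transporter, had 7.79 and 7.67 with siRNA 1, 5.96 and 5.94 with siRNA 2, and 6.06 and 6.16 with scramble. SYT11, a synaptotagmin of vesicle traffic, had 7.77 and 7.94 with siRNA 1, 6.11 and 6.19 with siRNA 2, and 5.91 and 5.77 with scramble. SLC4A8 rose by 1.78 (SE 0.07) and SYT11 by 1.71 (SE 0.09).

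**Figure D3:**
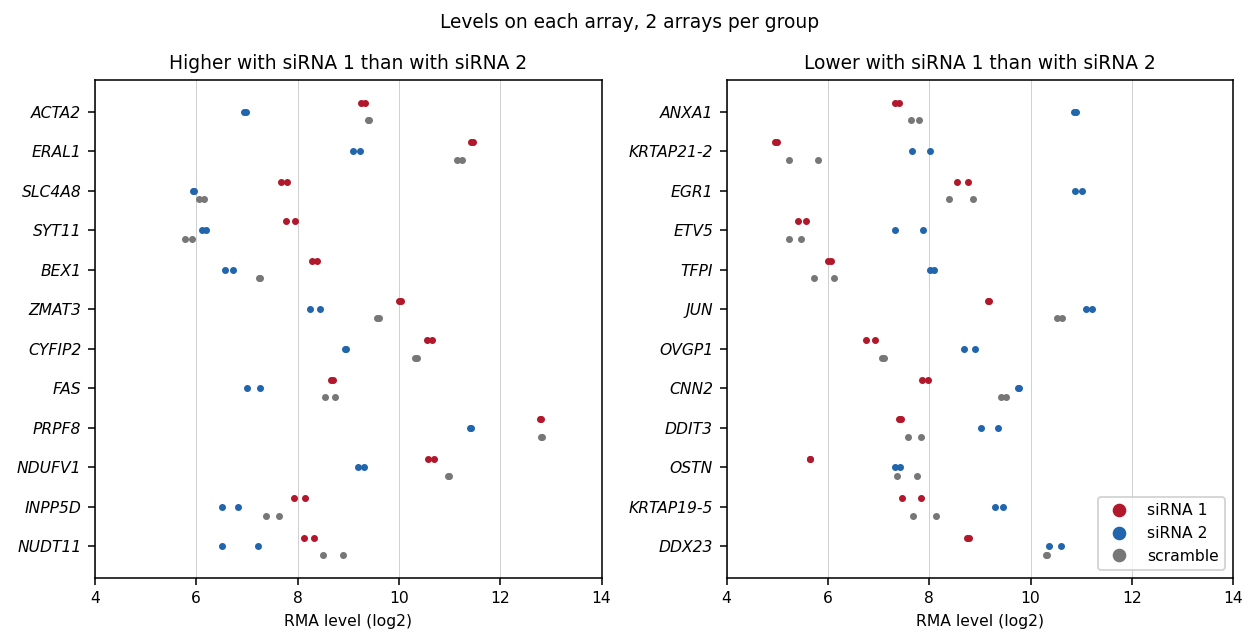
RMA level (x axis, log2) on each array for the 12 genes with the largest positive (left) and the 12 with the largest negative difference (right), with siRNA 1 in red, siRNA 2 in blue and scramble in grey, 2 arrays each. The siRNA 1 and siRNA 2 points do not overlap in any of the 24 genes, and scramble lies nearer to siRNA 1 in ACTA2, ERAL1 and ANXA1 but nearer to siRNA 2 in SLC4A8, SYT11 and DDX23.

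The scramble arrays do not enter the difference itself. They place a gene above or below scramble, and that placement depends on the processing. With siRNA 2, 1459 genes were called higher and 2557 lower than scramble in the main fit. These were 2190 and 1897 with arrays centred on medians, and 1286 and 5537 with series matrix values. With siRNA 1 they were 749 and 1379, 886 and 1177, and 882 and 4355 in the same order. Against scramble, 2128 genes (11.5%) were called with siRNA 1 and 4016 (21.7%) with siRNA 2, in comparisons that share the scramble arrays. With the values of the series matrix, whose scramble levels differ from those of the table, the counts were 5237 with siRNA 1 and 6823 with siRNA 2. Without single arrays they ran between 257 and 2310 with siRNA 1 and between 1789 and 3916 with siRNA 2, lowest without siRNA 1 replicate 2 and without siRNA 2 replicate 1.

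Of the 3165 genes called between the siRNAs, 1529 (48.3%) were called against scramble with siRNA 2 only, 1000 of them lower and 529 higher than scramble. A further 572 (18.1%) were called with siRNA 1 only, and 699 (22.1%) with neither. Both siRNAs moved a gene the same way to unequal extent in 241 cases and in opposite directions in 124. The scramble mean lay between both siRNA means for 1850 genes (58.5%). These counts, and those of gene lists against scramble below, come from the main fit alone.

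Targets of p53 formed the list with the highest share of genes higher with siRNA 1. The transcription factor p53 answers DNA damage and other stress by inducing genes of cell cycle arrest, repair and cell death. Of 33 measured targets, 21 rose and 1 fell, with a median of 0.44 (log2) against 0.02 over all genes. The 21 were 14 to 16 without 1 of the siRNA arrays.

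ZMAT3, a zinc finger RNA-binding protein, had levels of 10.01 and 10.04 with siRNA 1, 8.24 and 8.44 with siRNA 2, and 9.61 and 9.57 with scramble. FAS, a death receptor, had 8.70 and 8.65 with siRNA 1, 7.01 and 7.25 with siRNA 2, and 8.55 and 8.73 with scramble. SPATA18, a mitochondrial quality control protein, had 8.23 and 8.10 with siRNA 1, 6.97 and 6.65 with siRNA 2, and 8.42 and 8.46 with scramble. In FAS and SPATA18 the low group was siRNA 2, and in ZMAT3 scramble lay between the siRNAs.

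Their differences were 1.68 (SE 0.08), 1.55 (SE 0.10) and 1.36 (SE 0.11). EDA2R, a receptor of the tumour necrosis factor family (1.31), and TP53I3, an oxidoreductase (1.23), rose too. ACTA2 (2.33) is also in this list, and its probe set overlaps that of FAS in position on the opposite strand. Smaller rises were found for MDM2, which marks p53 for degradation (0.79), BAX, a pore-forming death effector (0.45), and CDKN1A, the cell cycle inhibitor p21 (0.36), all 3 chosen after their values were seen. CDKN1A was no longer called without siRNA 1 replicate 1, siRNA 1 replicate 2 or siRNA 2 replicate 2. GADD45A, a growth arrest and stress gene, was the member that fell (-0.87), and was likewise named after its value was seen.

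Set against scramble, 4 of the 33 were lower and 3 higher with siRNA 1, where 7.46% and 4.05% of all genes were called. With siRNA 2, 23 were lower and 2 higher, where 13.8% and 7.90% of all genes were called. The list medians were 0.04 with siRNA 1 and -0.42 with siRNA 2.

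Immediate early genes, which growth factors and stress switch on within minutes without new protein synthesis, showed the opposite picture between the siRNAs. Of 29 measured, 19 fell and 2 rose with siRNA 1, with a median of -0.51 (13 to 15 fell without 1 siRNA array). JUN, a subunit of the AP-1 factor whose promoter is printed above, had levels of 9.17 and 9.15 with siRNA 1, 11.10 and 11.21 with siRNA 2, and 10.53 and 10.62 with scramble. The 3 groups were separate, with scramble between the siRNAs and nearer to siRNA 2. The JUN difference was -1.99 (log2) with an SE of 0.07 and an adjusted p of 0.000157 by limma.

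ATF3, a stress-induced repressor of the ATF family, had 7.11 and 7.02 with siRNA 1, 8.40 and 8.49 with siRNA 2, and 7.50 and 7.54 with scramble. SGK1, a serum-induced kinase, had 6.86 and 6.85 with siRNA 1, 8.01 and 8.05 with siRNA 2, and 6.64 and 6.77 with scramble. ATF3 (-1.38) and SGK1 (-1.18) fell, and neither overlapped between the siRNAs. CCN1, a secreted matrix protein (-0.98), and FOSB, another AP-1 subunit (-0.89), also fell. The 2 members that rose were BTG2 (0.53), an antiproliferative gene that is in the p53 list too, and MYC (0.29), the growth-promoting transcription factor, both named after their values were seen.

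Against scramble, 8 of the 29 were lower and 1 higher with siRNA 1, where 7.46% and 4.05% of all genes were. With siRNA 2, 2 of the 29 were lower and 14 higher, where 13.8% and 7.90% of all genes were. EGR1 differed from scramble by 0.02 with siRNA 1 and by 2.31 with siRNA 2, whereas JUN differed by -1.41 with siRNA 1 and by 0.58 with siRNA 2.

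Among genes of the ERK feedback loop, calls ran in 1 direction. The list holds genes of ETS factors induced by ERK and the Sprouty and SPRED proteins that restrain the pathway. Of 18 measured, 7 fell and none rose by limma (10 and 1 at an unadjusted p under 0.05), with a median of -0.28, and 5 to 6 fell without 1 siRNA array. Beside ETV5, ETV1 had levels of 6.28 and 6.40 with siRNA 1, 7.63 and 7.78 with siRNA 2, and 5.77 and 5.67 with scramble. In ETV1 both siRNAs lay above scramble, siRNA 2 further so. The differences were -1.36 for ETV1, -1.27 for SPRED2, -0.67 for SPRY2, -0.61 for SPRED1 and -0.36 for SPRY4.

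The amino acid response, in which the factor ATF4 induces amino acid transporters, tRNA synthetases and stress regulators, was lower with siRNA 1. Of 37 measured genes, 22 fell and none rose by limma (26 and 2 at an unadjusted p under 0.05), with a median of -0.38, and 11 to 14 fell without 1 siRNA array. DDIT3 had levels of 7.40 and 7.44 with siRNA 1, 9.02 and 9.36 with siRNA 2, and 7.58 and 7.84 with scramble. PPP1R15A, which recruits a phosphatase to restart translation, had 8.04 and 7.86 with siRNA 1, 9.05 and 9.08 with siRNA 2, and 8.13 and 8.12 with scramble. Both stood high in the siRNA 2 arrays, and the siRNA 1 arrays lay below the scramble arrays without passing the test.

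CHAC1, a glutathione-degrading enzyme (-0.97), SLC3A2, the heavy chain of amino acid transporters (-0.82), and STC2, a secreted glycoprotein (-0.76), fell as well. ATF4 itself fell (-0.32), a gene named after its value was seen. The list median against scramble was -0.17 with siRNA 1, with 12 genes lower and 2 higher, where 7.46% and 4.05% of all genes were. With siRNA 2 it was 0.22, with 3 lower and 19 higher, where 13.8% and 7.90% of all genes were. The list shares ATF3 with the immediate early genes.

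**Figure D4:**
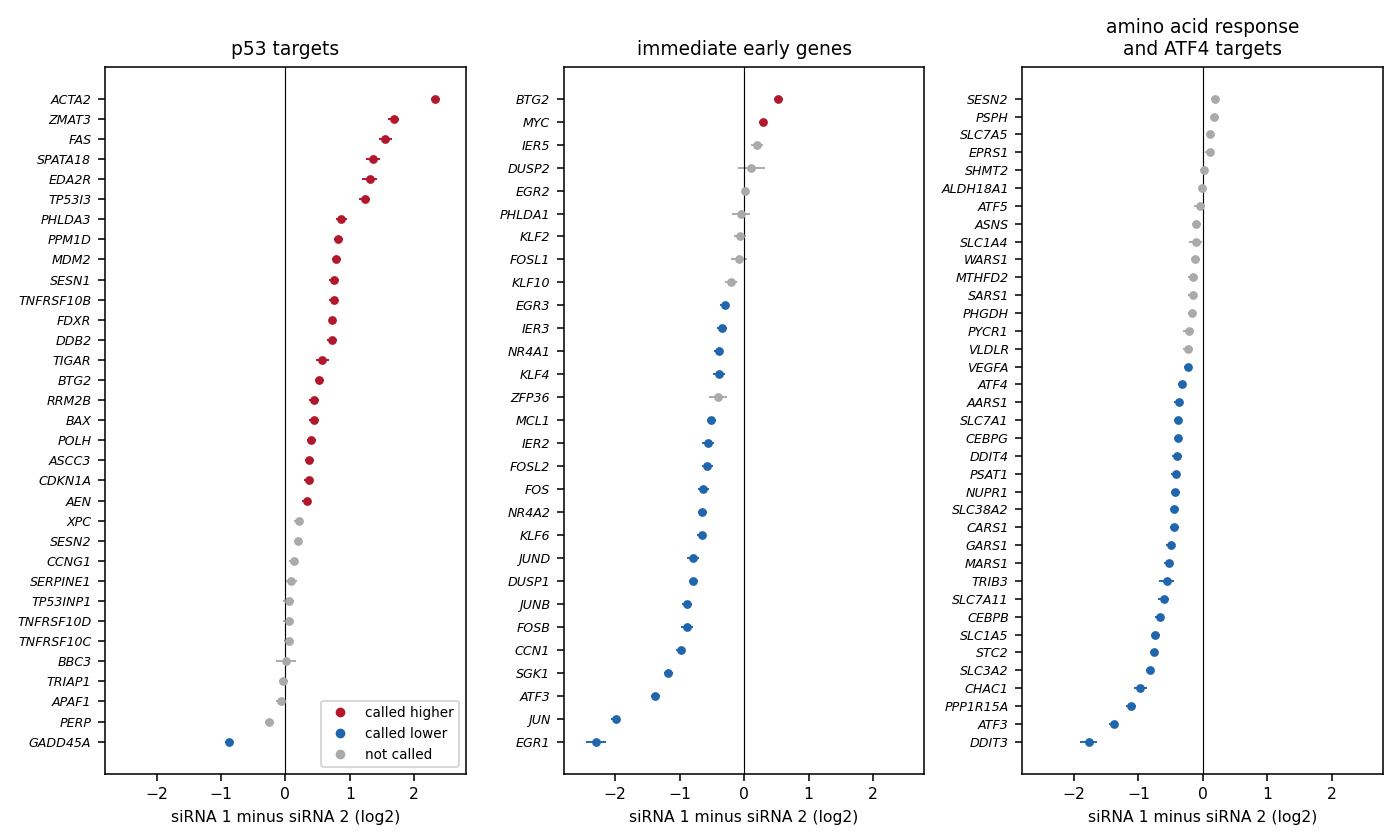
Difference siRNA 1 minus siRNA 2 (x axis, log2, point and SE, 2 arrays per siRNA) for each measured p53 target, immediate early gene and amino acid response gene, red where called higher, blue where called lower and grey where not called. Most p53 targets lie right of 0 with ACTA2 at 2.33, and most genes of the other panels lie left of 0, down to EGR1 at -2.30 and DDIT3 at -1.77.

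Stress genes of the endoplasmic reticulum and of autophagy differed in part, where 7.50% of all genes fell and 9.63% rose. Of 24 ER folding genes, 6 fell and 2 rose, led by the co-chaperone DNAJB9 (-1.02) and HERPUD1 (-1.02), a degradation factor of the ER membrane. HERPUD1 had levels of 9.83 and 9.77 with siRNA 1, 10.81 and 10.83 with siRNA 2, and 10.34 and 10.46 with scramble, so scramble lay between the siRNAs. Of 40 autophagy and lysosome genes, 9 fell and 3 rose, with GABARAPL1 (-0.85) and the cargo receptor SQSTM1 (-0.80) among those that fell. The falls numbered 3 to 4 (ER folding) and 6 (autophagy and lysosome) without 1 siRNA array. Cytosolic heat shock genes had a lower share of calls (9.38%) than all genes (17.1%), with 3 of 32 lower and none higher by limma (7 and 2 at an unadjusted p under 0.05), the small heat shock protein HSPB8 (-1.25) among them.

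Of 25 targets of YAP, TGF-beta and BMP signalling, 11 fell and 1 rose (median -0.21). ANKRD1, a muscle ankyrin protein often read as a YAP target, had levels of 5.93 and 5.87 with siRNA 1, 7.22 and 7.39 with siRNA 2, and 5.71 and 5.73 with scramble. The siRNA 2 arrays were the high group. ANKRD1 (-1.41), TEAD1, the DNA-binding partner of YAP (-0.82), and ID1, a BMP-induced inhibitor of differentiation (-0.54), fell. LTBP1, which holds latent TGF-beta in the matrix, was the member that rose (0.44), named after its value was seen. The falls numbered 4 to 6 without 1 siRNA array.

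HOX genes, which set position along the body axis and whose HOXC cluster borders LOC400043, fell in 13 of 35 cases and rose in 1, HOXC5 (median -0.21). HOXA5 had levels of 9.50 and 9.54 with siRNA 1, 10.33 and 10.38 with siRNA 2, and 9.99 and 9.87 with scramble. HOXA6 (-0.73), HOXA3 (-0.67), HOXB2 (-0.61) and HOXA10 (-0.46) fell beside HOXA5 (-0.83). These 5 lie in the HOXA and HOXB clusters on other chromosomes. Against scramble, 3 of the 35 were higher and 4 lower with siRNA 1 (median 0.07), where 4.05% and 7.46% of all genes were. With siRNA 2, 17 of the 35 were higher and 1 lower (median 0.27), where 7.90% and 13.8% of all genes were. Without 1 siRNA array, 5 to 7 fell and HOXC5 was not called.

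Of 39 neuronal genes, a class partly expressed in HEK-293 cells, 11 rose and 2 fell with siRNA 1 (median 0.15). NEFM, a neurofilament protein, had levels of 9.72 and 9.76 with siRNA 1, 8.88 and 8.91 with siRNA 2, and 10.18 and 10.24 with scramble, so both siRNAs lay below scramble and siRNA 2 further so. DPYSL5, a protein of axon guidance (1.07), SCG3, a secretogranin of low level (0.93), and SYP, the vesicle protein synaptophysin (0.96), rose with NEFM (0.85) and SYT11. MAP2, a microtubule-associated protein, fell (-1.07). Against scramble, 11 of the 39 were higher and 2 lower with siRNA 1, where 4.05% and 7.46% of all genes were. With siRNA 2, 5 of the 39 were higher and 7 lower, where 7.90% and 13.8% of all genes were. Between the siRNAs, 6 to 11 rose without 1 siRNA array.

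In the actin cytoskeleton list, 5 of 50 probe sets rose, near the 9.63% of all genes, and 9 fell, where 7.50% of all genes did. FLNA, the actin cross-linker filamin A, had levels of 7.69 and 7.89 with siRNA 1, 9.48 and 9.43 with siRNA 2, and 9.83 and 9.79 with scramble. Both siRNAs lay below scramble, siRNA 1 much further. FLNA (-1.66) and CNN2 (-1.85) thus fell while ACTA2 (2.33) and MICAL2, an actin-oxidising enzyme (0.83 on 1 of its probe sets), rose. Without 1 siRNA array, 3 to 4 of the list rose and 4 to 5 fell.

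The machinery that carries out small RNA silencing itself differed in part. Of 24 measured genes, 7 fell and 3 rose, where 7.50% and 9.63% of all genes did. AGO1, an Argonaute protein, had levels of 10.55 and 10.55 with siRNA 1, 9.88 and 9.86 with siRNA 2, and 10.30 and 10.31 with scramble, and rose by 0.69. DCP1A, a decapping activator (-0.88), TNRC6B, an Argonaute partner (-0.71), and PAN3, of a deadenylase (-0.68), fell, as did AGO3 (-0.38). In fits without 1 siRNA array, 3 to 4 fell and 1 rose. Of 38 sensors of foreign RNA and interferon-stimulated genes, 5 rose and 1 fell, a share of 15.8% against 17.1% of all genes. Their mean level was 6.53 (log2), and 9.24% of genes with a level between 6 and 7 were called. The gene that fell was RIGI, the cytosolic RNA sensor, with 7.17 and 7.05 with siRNA 1, 8.45 and 8.73 with siRNA 2, and 6.93 and 7.35 with scramble (difference -1.48, SE 0.15, adjusted p = 0.0017 by limma). TLR3 (0.56), IFIT1 (0.55) and IFIT5 (0.49) rose, and 1 to 4 of the list rose without 1 siRNA array.

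Of 32 regulators of cell death, 4 rose and 8 fell, where 9.63% and 7.50% of all genes did. Beside FAS, the death receptor TNFRSF10B rose (0.75), while the apoptosis inhibitor XIAP (-0.72) and the survival protein MCL1 (-0.51) fell. Without 1 siRNA array, 2 to 3 rose and 4 to 5 fell. Glycolysis and hypoxia genes were higher with siRNA 1 than with siRNA 2 in 8 of 32 cases and lower in 1 (median 0.16). The mitophagy receptor BNIP3 (0.79) and HIF1A, the hypoxia factor (0.37), were among the higher. Against scramble the list median was -0.07 with siRNA 1, with 4 genes higher and 6 lower. With siRNA 2 it was -0.17, with 2 higher and 12 lower. All genes were called higher and lower at 4.05% and 7.46% with siRNA 1, and at 7.90% and 13.8% with siRNA 2. Without 1 siRNA array, 1 glycolysis and hypoxia gene rose.

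Several lists held fewer called members than the 17.1% of all genes. The proteasome (15.8%), G2/M and mitosis (14.3%) and the respiratory chain (13.8%) lay near that share. Rises in the proteasome and respiratory chain lists were also near the 9.63% of all genes. The cytosolic ribosomal proteins had 2 of 51 lower and none higher by limma (5 and 0 at an unadjusted p under 0.05), the replication-dependent histones 3 of 48 lower and 1 higher, the respiratory chain 6 of 58 higher and 2 lower, and the proteasome 4 of 38 higher and 2 lower. For G2/M and mitosis, 1 of 35 probe sets rose and 4 fell (14.3%). The DNA replication list lay above the 17.1% instead, at 29.3%, with 7 of 41 probe sets rising and 5 falling. Its mean level was 10.12 (log2), and 26.7% of genes with a level between 10 and 11 were called. Most calls of this list were not kept when any 1 siRNA array was left out. CCNE1, the G1 cyclin E1, had 9.94 and 9.91 with siRNA 1, 8.94 and 9.06 with siRNA 2, and 9.39 and 9.50 with scramble, a rise of 0.93. TPX2, a spindle assembly factor, was the G2/M gene that rose (0.57), and CCNA2, cyclin A2, fell (-0.48). CCNA2 was not called without siRNA 1 replicate 1 (adjusted p = 0.0651 by limma), siRNA 1 replicate 2 (0.0579) or siRNA 2 replicate 2 (0.0603).

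**Figure D5:**
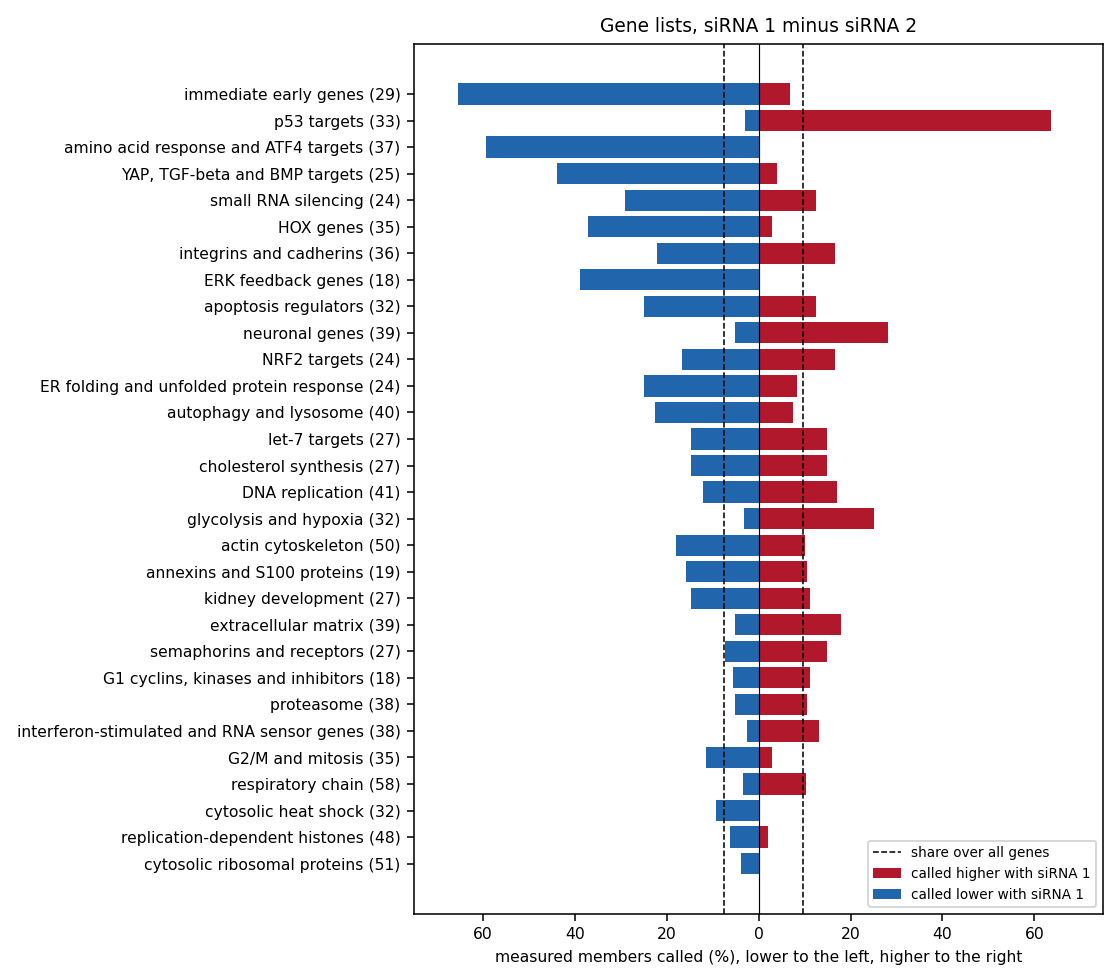
Share of measured members called lower (blue, left) and higher (red, right) with siRNA 1 than with siRNA 2 in each of 30 gene lists, as a percentage on the x axis, with the number of probe sets in parentheses and the shares over all genes as dashed lines (7.50% lower, 9.63% higher). Immediate early genes reach furthest left and p53 targets furthest right, and ribosomal proteins have the smallest share of calls in both directions together.

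Among markers of HEK-293 cells, INA and NEFM, both neurofilament proteins, stood between 8.88 and 11.28 (log2) on all arrays. PAX8, PAX2, LHX1 and DPYSL3 lay between 5.97 and 7.10, below the array medians of 7.53 to 7.62. INA (0.68) and NEFM (0.85) rose, and PAX8, PAX2, LHX1 and DPYSL3 were not called. Markers of blood cells, endothelium, hepatocytes and squamous epithelium lay between 3.56 and 7.32 (log2) on all arrays, and none was called by limma (1 blood and 1 endothelial marker at an unadjusted p under 0.05). The 5 fibroblast markers lay between 3.89 and 8.10, so their highest value was above the array medians. Of these, LUM was called higher, at 4.62 and 4.52 with siRNA 1, 4.06 and 4.06 with siRNA 2, and 4.48 and 4.43 with scramble. All LUM values were dim.

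The same contrast can be set beside that of the other lncRNA of the series, LINC00324, whose siRNAs were given to the same cell line. Between its siRNA 1 and siRNA 2, 567 genes (3.07%) were called, and the differences had an SD over genes of 0.21 (log2), against 0.26 for LOC400043. In the 18229 genes of both tables, 232 were called in both, which is 7.44% of the LOC400043 calls and 41.4% of the LINC00324 calls. Among these 18229 genes, 17.1% were called for LOC400043 and 3.08% for LINC00324. The scramble arrays enter the error of both fits, the numbering of siRNAs carries no order between targets, and the difference between the counts was not tested.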

How the data were processed

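Levels were log2 values that the authors deposited, made by RMA per the submitters' processing notes, which also name limma without a version. RMA as a method corrects background, makes array distributions equal and summarises probes, and quantities that differ across whole arrays are then hard to see. The genome build behind the table was not given in the sources used here, and promoters are those of RefSeq GRCh38.p14. The deposited table holds 18480 genes on 6 arrays, with the authors' log2 ratio and p-value for both siRNAs together, not used here. Gene names were updated through RefSeq for 17334 genes by accession, 423 by symbol and 338 by a former symbol, and 384 kept the deposited name. 1 name that a spreadsheet had turned into a date stayed unresolved.

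Here limma 3.58.1 in R 4.3.3 was fitted to the 6 arrays with 3 groups (3 residual degrees of freedom, moderated two-sided test, Benjamini-Hochberg over all 18480 genes). The siRNA 1 minus siRNA 2 contrast uses the siRNA arrays alone, and scramble enters only the error. Each group has 2 arrays, which limits precision. p-values measure the spread between these arrays. Array medians ran from 7.53 to 7.62 and values from 2.62 to 13.86, and 2428 genes (13.1%) had a mean under 5. Differences between replicates had an SD across genes of 0.13 (siRNA 1), 0.14 (siRNA 2) and 0.19 (scramble). The fit was tested on simulated data with known differences.

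Named are the 12 called genes with the largest difference in each direction, the 5 with the smallest p, the 6 largest among genes called against scramble in opposite directions, up to 6 called members per list, 5 neighbours on each side of LOC400043 and the markers. The contrast, the lists and the rule were chosen with earlier results of these data known. For 43 symbols held by more than 1 probe set each probe set was kept as a separate value. Alternatives were a replicate block, the siRNA arrays alone, a filter at a mean of 5, an intensity trend, a second quantile normalization, centring on medians, series matrix values and leaving out each array. Some genes that the rule would name are not reported here.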

Additional observations from a re-analysis of the deposited data

Results flagged for a closer look

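The effects of the siRNAs against scramble went in opposite directions for 124 of the 3165 genes called between them, each effect being called by limma, with 48 of them higher and 76 lower with siRNA 1. The difference itself was tested by the siRNA 1 minus siRNA 2 contrast. Among the 6 largest, ANXA1 stood at -0.36 with siRNA 1 and 3.16 with siRNA 2 against scramble (difference -3.52), JUN at -1.41 with siRNA 1 and 0.58 with siRNA 2 (difference -1.99) and CNN2 at -1.55 with siRNA 1 and 0.30 with siRNA 2 (difference -1.85). FOXP2, a forkhead transcription factor of brain development, stood at -1.01 with siRNA 1 and 0.45 with siRNA 2 (difference -1.46). BEX1, a small neuronal signalling protein, stood at 1.10 with siRNA 1 and -0.60 with siRNA 2 (difference 1.70) and ZMAT3 at 0.43 with siRNA 1 and -1.25 with siRNA 2 (difference 1.68). The 2 effects share the scramble arrays, and their directions were taken from the main fit alone.

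The series matrix holds 14817 further probe sets that have no gene name here. Of these, 553 (3.73%) were called between the siRNAs by limma in a fit over all its probe sets, 276 higher and 277 lower with siRNA 1, a setting chosen after seeing the data.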

How the results depend on the processing

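The siRNA 1 minus siRNA 2 count of 3165 called genes was between 3059 and 4297 in the planned settings that kept all siRNA arrays, 1869 when p was adjusted over all probe sets of the series matrix (added after seeing the data), and 989 to 3680 when 1 array was left out. With the replicate block it was 3777, including all 3165, and the block changed no call of the named genes. The replicate numbers are shared, but the replicate differences correlated across genes with r = 0.09 between siRNA 1 and siRNA 2, 0.23 between siRNA 1 and scramble and 0.37 between siRNA 2 and scramble, so the numbers were not taken as pairs. All 25 genes named by size, p or opposite direction were called in every setting that kept all arrays, the added one included, and 24 also with any 1 array left out, NUDT11 being the exception. Of 264 other list members and neighbours that were called, 186 were called in each setting with all arrays and 113 in every setting. HOXC10, not called, changed sign with a second quantile normalization (-0.01), centring (-0.03), without siRNA 1 replicate 2 (-0.00) and without siRNA 2 replicate 2 (-0.02, the range without single arrays being -0.02 to 0.05), and NFE2, not called, without siRNA 1 replicate 2 (0.16) and without siRNA 2 replicate 2 (0.03, the range being -0.16 to 0.16). The siRNA 1 minus scramble count of 2128 was 3479 with an intensity trend, 5237 with series matrix values and 3343 with all probe sets of the matrix, and 257 to 2310 with 1 array left out. The siRNA 2 minus scramble count of 4016 was 6823 with series matrix values, and 1789 to 3916 with 1 array left out. Series matrix scramble values differ from the table's by a median of 0.118 (log2), and the cause was not tested. An array left out leaves its group with a single array, assumed to vary like the others. Signal near background limits what dim genes can show.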
